A study of Anopheles arabiensis with 20 samples.

Results

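ASN and CHW are field populations of the malaria mosquito *Anopheles arabiensis*, and their 8 RNA libraries, of 20 in the series, were chosen by the population name in the labels. ASN was raised from larvae collected at Asendabo in south-west Ethiopia and CHW from larvae collected at Chewaka. Both were reared to adults at their own site at 25 °C, and the labels call both resistant to the pyrethroid deltamethrin and to DDT. Each library holds polyA-selected RNA from a pool of 10 whole females, 3 to 5 days old and without a blood meal, and each population has 4 such pools. The other libraries, 4 each, come from the Tolay population (TOL, also Ethiopian and called resistant) and from the susceptible laboratory strains SEK (Sekoru, Ethiopia) and MOZ (Mozambique). All 4 ASN libraries and CHW replicates 1 and 2 share the first sequencing run named in the titles, and CHW replicates 3 and 4 were in the second.

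No insecticide exposure separates ASN from CHW in the labels, so the comparison is between sites and between the rearing rooms at those sites. Pools of mosquitoes stand for each population, and a pool averages over its females. In whole bodies, fewer cells of a type and less RNA per cell cannot be told apart. The files do not pair nuclear gene IDs with names, so the tissue could not be checked against marker genes, and nuclear genes are counted as a class with 4 of them described by ID. The mitochondrial genes are named and are described one by one.

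Mitochondria make most of a cell's ATP by passing electrons along a chain of protein complexes. The insect mitochondrial genome encodes 13 subunits of that machinery, which are ND1 to ND6 and ND4L of complex I, CYTB of complex III, COX1 to COX3 of complex IV, and ATP6 and ATP8 of the ATP synthase. It also encodes the 2 ribosomal RNAs and 22 transfer RNAs used to translate them. In Drosophila these genes are transcribed as long precursors that are cut at the transfer RNAs, and messenger RNAs receive short polyA tails.

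Total counts ran from 17386535 to 21516390 in ASN libraries and from 14807515 to 18061723 in CHW libraries. Between 12026 and 12160 genes had a count in each library. No replicates of a population agreed within sampling noise, with a chi-square per degree of freedom of at least 25.4 in ASN and 45.4 in CHW. The common biological coefficient of variation was 0.182 in ASN and 0.195 in CHW, so both populations varied among pools to a similar degree. Over all tested genes, pairs with 1 ASN and 1 CHW library differed by a root mean square of 0.594 to 0.674 in log2 CPM, the counts scaled to a common library size. Pairs within ASN differed by 0.360 to 0.605 and pairs within CHW by 0.410 to 0.614. The first principal component of the 8 libraries held 38.4% of the variance and placed ASN replicates 1 to 3 at 26.1 to 30.0, ASN replicate 4 at 10.9 and CHW libraries at -30.5 to -17.9. The second component, with 17.3% of the variance, held CHW replicate 4 at 38.4 and CHW replicate 3 at -23.4 apart from all other libraries, which lay between -8.24 and 6.08.

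More genes were higher than lower in ASN. Calls required an adjusted p (Benjamini-Hochberg) under 0.05 in edgeR's quasi-likelihood test together with a change of at least 2-fold. Of 11018 genes tested, 311 (2.82%) were called higher in ASN than in CHW and 90 (0.817%) lower, together 3.64%. The higher genes comprised 302 nuclear genes and 9 mitochondrial ones, and the lower genes were all 90 nuclear. Most changes were moderate, since the median log2 fold change was 1.41 among the higher genes and -1.46 among the lower ones. At least 4-fold changes were found in 58 higher and 21 lower genes, and at least 8-fold changes in 12 and 6. Over all tested genes the median size of the log2 difference was 0.22 and the 95th percentile 1.04. The excess of higher genes was smaller when counts were scaled by library totals only, with 203 higher and 143 lower. That scaling shifted the table's median log2 difference by -0.17.

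**Figure D1:**
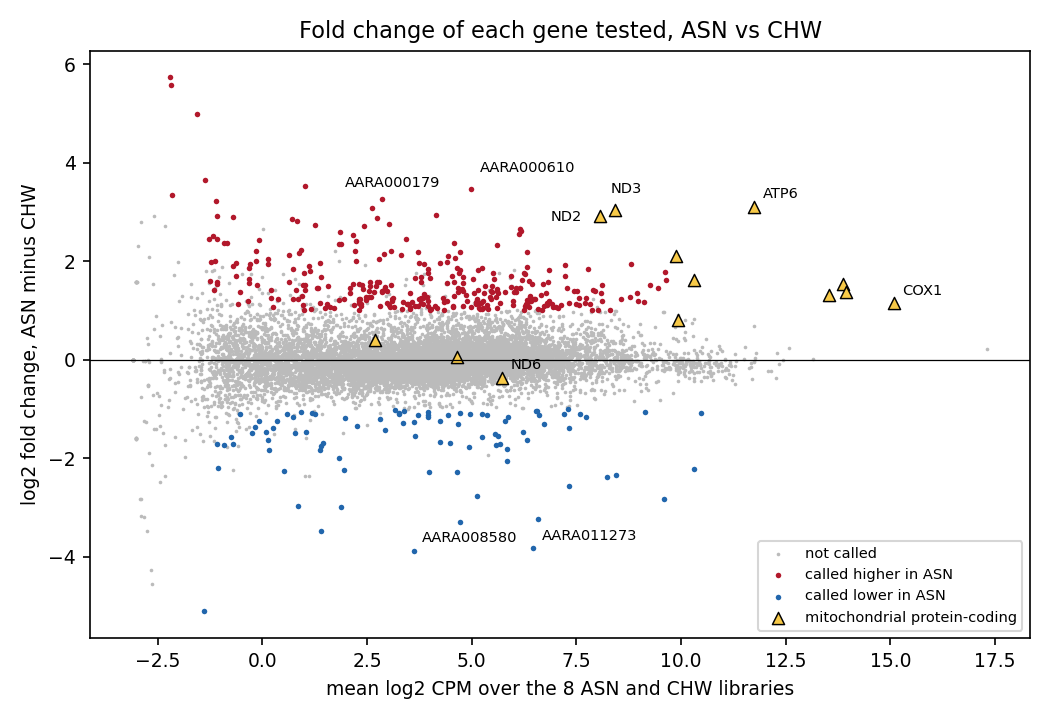
Each point is a gene, with the mean log2 CPM over the 8 ASN and CHW libraries on the horizontal axis and the log2 fold change, ASN minus CHW, on the vertical axis. The 311 genes called higher (red) outnumber the 90 called lower (blue), and the mitochondrial protein-coding genes (triangles) run from -0.36 for ND6 to 3.11 for ATP6.

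Called genes were found at every level of expression. Among genes with a mean of at least 100 CPM over the 8 libraries, 63 of 1278 (4.93%) were called higher and 18 (1.41%) lower in ASN. Among genes between 10 and 100 CPM the figures were 128 of 5339 (2.4%) and 37 (0.693%). Between 1 and 10 CPM they were 91 of 3328 (2.73%) and 25 (0.751%). Below 1 CPM, 29 of 1073 genes (2.7%) were called higher and 10 (0.932%) lower. The median level was 19.2 CPM for the higher genes, 17.1 CPM for the lower ones and 15.3 CPM for all genes tested. A search for genes counted in one population and not in the other found none. With a minimum of 5 counts in every library of one population and no count in all 4 libraries of the other, 0 genes were found for ASN and 0 for CHW. A looser limit on the absent side, of at most 1 count per library with a minimum of 10 on the present side, again gave 0 and 0.

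The called nuclear genes held a small part of all counts. The 302 higher nuclear genes took 2.77%, 2.80%, 2.76% and 1.95% of the counts in ASN replicates 1 to 4, against 1.05%, 1.07%, 0.988% and 1.34% in CHW replicates 1 to 4. The 90 lower genes took 0.391% to 0.413% in ASN libraries, against 2.09%, 1.83%, 1.35% and 0.925% in CHW replicates 1 to 4. These shares describe genes that were chosen by the same counts. They were even across ASN for the lower genes, while ASN replicate 4 held less of the higher genes than the other ASN libraries, and CHW replicate 4 held less of the lower genes than the other CHW libraries.

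One pool of each population lay nearer to the other population, ASN replicate 4 in the higher genes and CHW replicate 4 in the lower ones. These genes were chosen by the same values. ASN replicate 4 was the lowest ASN library in 182 of the 311 higher genes (58.5%), while over all tested genes it was the lowest in 32%. Its median position was 0.35 log2 units above the mean of the 8 libraries for the higher genes, against 0.83 to 0.90 for ASN replicates 1 to 3. CHW replicate 4 was the lowest CHW library in 62 of the 90 lower genes (68.9%), while over all tested genes it was the lowest in 28.9%. Its median position for the lower genes was 0.15 above the mean of the 8, against 0.85 to 0.90 for CHW replicates 1 to 3. In the other set of genes each pool stood out less. For the lower genes ASN replicate 4 lay at -0.61, against -0.74 to -0.71 for ASN replicates 1 to 3. For the higher genes CHW replicate 4 lay at -0.58, against -0.81 to -0.64 for CHW replicates 1 to 3. Of the called genes, 197 higher and 67 lower had no overlap between the 4 ASN and the 4 CHW libraries. Over all tested genes every ASN library lay above every CHW library in 8.5%, and below in 7.65%.

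**Figure D2:**
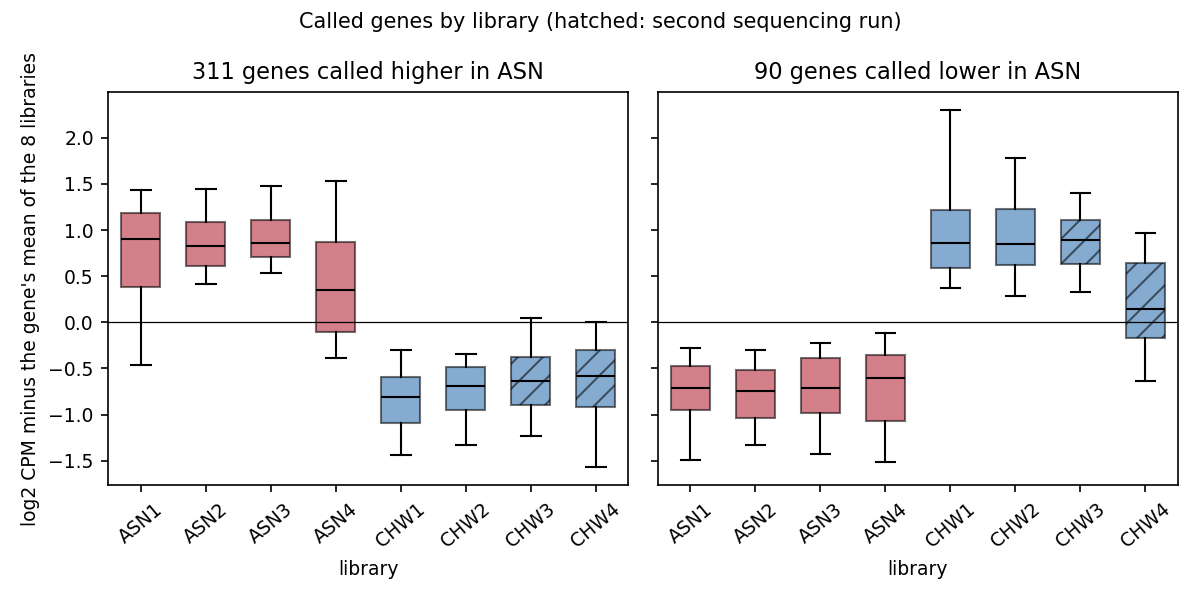
For each library, the box spans the quartiles of the called genes' log2 CPM minus the gene's mean over the 8 libraries, with the median as a line and whiskers at the 10th and 90th percentile. The left panel shows the 311 higher genes and the right panel the 90 lower genes; ASN is red, CHW blue and the second sequencing run hatched, and ASN4 on the left and CHW4 on the right lie closest to the other population.

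Within the first sequencing run the comparison gave similar numbers of genes. ASN replicates 1 to 4 against CHW replicates 1 and 2 gave 320 higher and 94 lower genes of 10804 tested (2.96% and 0.87%, together 3.83%) with edgeR's quasi-likelihood test. With library totals alone the split was 225 higher and 146 lower. The first-run comparison shares 6 libraries with that of all 8. Of the 311 higher genes 219 (70.4%) were called again, which is 68.4% of the 320, and of the 90 lower genes 66 (73.3%) were, which is 70.2% of the 94. Of the 92 higher genes not called again, 1 was not tested, 88 missed the adjusted p and 3 missed only the fold. All 91 that were tested kept their sign, with a median log2 fold change of 1.38. The 24 lower genes not called again held 23 tested genes, of which 22 missed the adjusted p, and all 23 kept their sign with a median of -1.08. No gene was called in opposite directions.

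The first-run numbers rested on both CHW libraries. Without CHW replicate 1 there were 48 higher and 45 lower genes, and without CHW replicate 2 there were 119 and 59, with the lone CHW library assumed to vary like the other groups. Without ASN replicate 3 the higher genes numbered 207. ASN against CHW replicates 3 and 4, which were sequenced in the other run, gave 163 higher and 59 lower genes of 11352 tested (1.44% and 0.52%, together 1.96%). That model held all 20 libraries with CHW split by run, and in it CHW replicates 1 and 2 gave 314 higher and 97 lower genes. CHW replicates 3 and 4 against CHW replicates 1 and 2 gave 0 called genes in edgeR, with 593 genes (5.22%) at an unadjusted p under 0.05, and 4 genes in DESeq2. In all 3 choices of CHW library 131 genes were called higher and 32 lower. With all CHW libraries 311 and 90 of 11018 genes were called.

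Of all 11018 genes tested, 2.82% were called higher and 0.817% lower in ASN, and 8.5% and 7.65% had no overlap in those directions. Beyond the mitochondrial genes, 141 higher and 43 lower genes were called in both comparisons without overlap between populations and with at least 5 CPM in the higher population. The largest increases among them were in AARA000610 and AARA000179. AARA000610 had 252, 87.5, 121 and 29.2 CPM in ASN replicates 1 to 4, against 9.07, 11.98, 7.98 and 14.9 CPM in CHW replicates 1 to 4. ASN libraries differed among themselves by more than the whole CHW range. The lowest ASN library lay above the highest CHW library, as the choice of this gene required. The mean was 122.6 ± 94.5 CPM in ASN and 10.99 ± 3.12 CPM in CHW (SD, n = 4 each), and their log2 difference was 3.47 (SE 0.526, edgeR adjusted p 0.000297). Within the first run it was 3.54 (SE 0.825, edgeR adjusted p 0.0229). The means of the other groups lay below that of CHW, at 8.47 ± 5.85 CPM in TOL, 9.69 ± 4.07 CPM in SEK and 1.93 ± 0.708 CPM in MOZ.

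AARA000179 had a lower level and a narrower spread. It had 28.2, 19.2, 27.7 and 16.6 CPM in ASN replicates 1 to 4, against 2.15, 1.40, 2.51 and 3.35 CPM in CHW replicates 1 to 4. The choice of this gene required every ASN library to lie above every CHW library, and the gap ran from 3.35 to 16.6 CPM. On the log2 scale ASN exceeded CHW by 3.26 (SE 0.347, edgeR adjusted p 2.8e-05), and within the first run 3.69 (SE 0.361, edgeR adjusted p 0.000247). Here the means of TOL, 15.6 ± 4.32 CPM, and SEK, 9.40 ± 5.09 CPM, lay between those of ASN and CHW, and that of MOZ was 1.86 ± 0.559 CPM.

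The largest decreases were in AARA008580 and AARA011273. AARA008580 had 2.89, 3.00, 3.25 and 4.91 CPM in ASN replicates 1 to 4, against 82.3, 78.1, 33.0 and 14.97 CPM in CHW replicates 1 to 4. ASN libraries were close to each other, while CHW libraries of the first run were above those of the second. Over all CHW libraries the change was -3.88 on the log2 scale (SE 0.561, edgeR adjusted p 0.000214). It was -4.50 against CHW replicates 1 and 2 and -2.76 against CHW replicates 3 and 4. In separate models, edgeR called it in both (adjusted p 7.74e-05 and 0.00786). The difference between the CHW pairs themselves, -1.75 (SE 0.579) for replicates 3 and 4, had an edgeR adjusted p of 0.762.

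AARA011273 had 31.6, 25.1, 22.4 and 32.1 CPM in ASN replicates 1 to 4, against 661, 491, 371 and 56.5 CPM in CHW replicates 1 to 4. CHW replicate 4 lay far below the other CHW libraries and still above every ASN library, the latter as the choice of this gene required. Its log2 difference was -3.83 (SE 0.642, edgeR adjusted p 0.000679) over all CHW libraries and -4.37 (SE 0.617, edgeR adjusted p 0.00199) within the first run. The means of SEK for these genes were 88.4 ± 74.4 CPM for AARA008580 and 376 ± 188 CPM for AARA011273. TOL lay nearer to ASN, at 8.19 ± 4.23 CPM and 81.5 ± 69.1 CPM. MOZ had 19.4 ± 3.56 CPM of AARA008580 and, at 4.15 ± 0.858 CPM of AARA011273, less than ASN.

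**Figure D3:**
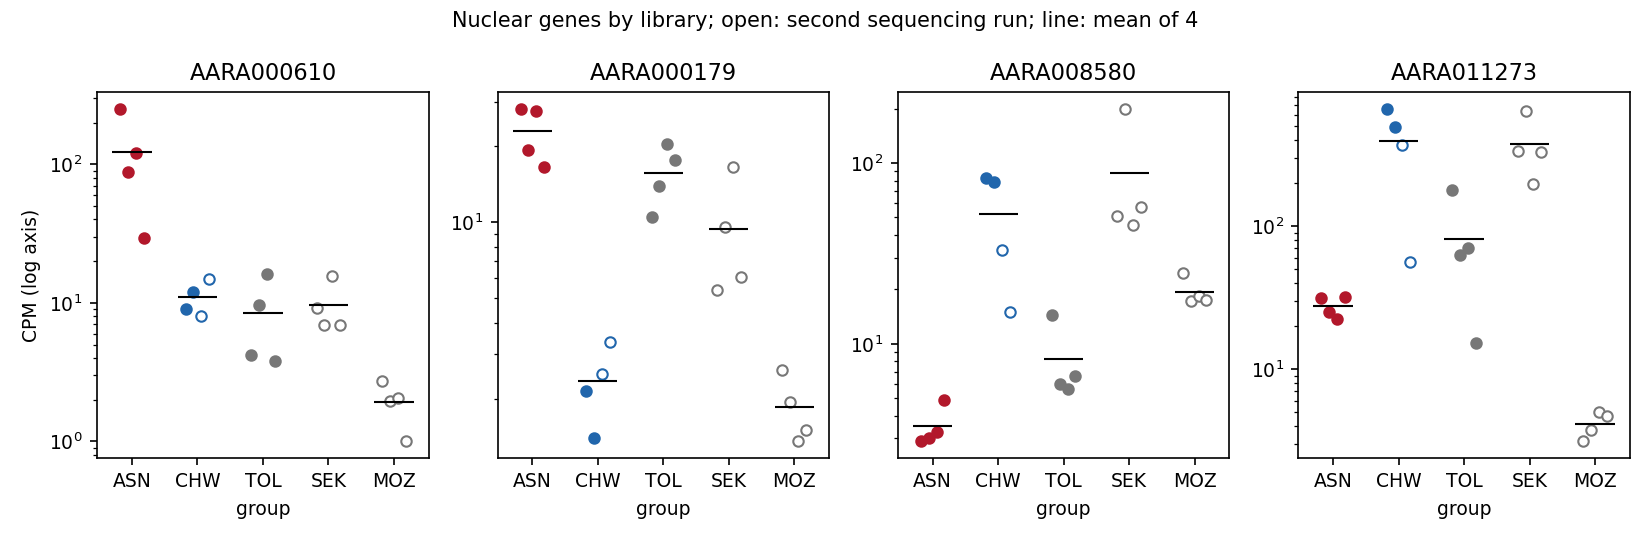
CPM on a log axis in every library of the 5 groups for the 2 nuclear genes with the largest increases and the 2 with the largest decreases; lines are means of 4 libraries and open points belong to the second sequencing run. AARA000610 is high in ASN, at 29.2 to 252 CPM, while AARA008580 is low there, at 2.89 to 4.91 CPM.

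Mitochondrial messenger RNAs as a group were higher in ASN than in CHW. The 13 protein-coding genes together took 14.1%, 10.8%, 14.5% and 14.7% of the counts in ASN replicates 1 to 4, against 4.44%, 6.25%, 9.07% and 2.65% in CHW replicates 1 to 4. At this depth counting error is small, as no 95% Wilson interval was wider than 0.0327 percentage points. The populations did not overlap, and ASN averaged 13.5% ± 1.83 and CHW 5.60% ± 2.74 (SD, n = 4 each), a difference of 7.90 percentage points. A 2-sided exact permutation test gave 0.0286, the smallest p that 4 libraries against 4 allow, and 0.0429 after adjustment over 3 shares. Against CHW replicates 1 and 2, at 5.35% ± 1.28, the difference was 8.16 points and the exact p 0.0667, again the smallest possible. All mitochondrial genes together took 29.6% ± 2.10 in ASN and 21.0% ± 3.92 in CHW, with an exact permutation p of 0.0286 (adjusted 0.0429). The ribosomal RNAs together took 16.1% ± 0.653 in ASN and 15.4% ± 2.58 in CHW, with an exact permutation p of 0.686, and without CHW replicate 1 their difference changed sign, to -0.34 points.

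Of the 13 protein-coding genes, 8 were called higher in ASN than in CHW, 0 lower and 5 not called, where 2.82% of all genes were called higher. Their median log2 fold change was 1.39, against -0.03 over all genes tested, and in 9 of the 13 every ASN library lay above every CHW library (8.5% of all genes). These transcripts come from 1 small genome and are not independent of each other. The number called varied with the model, from 3 with the sequencing run as a covariate or under a test against a 1.5-fold change to 9 without CHW replicate 3. Within the first run 8 were called, with a median of 1.45, where 2.96% of all genes were called higher. COX1 was among the 8 and ND2 was not. Without ASN replicate 3 there were 5, while higher calls over all genes fell from 320 of 10804 tested to 207 of 10778. The median log2 fold change of the 13 was 1.27 with CHW replicate 2 alone and 1.73 with CHW replicate 1 alone. Against CHW replicates 3 and 4, 5 of the 13 were called in a model of all 20 libraries with CHW split by run. In that contrast 1.44% of all genes were called higher. In the same model 3 of the 13 were called against CHW replicates 1 and 2, with 314 of 11352 genes called higher.

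In complex I, the NADH dehydrogenase that starts the chain, ND2 to ND5 were called and ND1, ND4L and ND6 were not. ND3 had 1426, 275, 1628 and 1086 CPM in ASN replicates 1 to 4, against 188, 123, 144 and 79.9 CPM in CHW replicates 1 to 4. Its log2 fold change was 3.04 (SE 0.525, edgeR adjusted p 0.000816), with ASN replicate 2 closest to CHW but above it. ND2 had 966, 111, 1418 and 1325 CPM in ASN replicates 1 to 4, against 245, 123, 51.1 and 88.3 CPM in CHW replicates 1 to 4. ASN replicate 2 lay within the CHW range of ND2, so the populations overlapped, and the log2 fold change of 2.91 (SE 0.721) had an edgeR adjusted p of 0.0106 over all libraries but 0.176 within the first run.

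ND5 and ND4 changed less. ND5 had 2221, 841, 2651 and 2839 CPM in ASN replicates 1 to 4, against 548, 567, 628 and 229 CPM in CHW replicates 1 to 4. Its log2 fold change was 2.12 (SE 0.375, edgeR adjusted p 0.00097), and that of ND4 was 1.61 (SE 0.364, edgeR adjusted p 0.00588). ND4 had 1276 to 3181 CPM in ASN and 308 to 1067 CPM in CHW, with no overlap. ND1 had 1255 to 1542 CPM in ASN and 259 to 1014 CPM in CHW, also without overlap, and its log2 fold change of 0.81 (SE 0.312) had an edgeR adjusted p of 0.0947. ND6 had 30.4 to 77.3 CPM in ASN and 45.0 to 103 CPM in CHW, and ND4L 19.4 to 34.1 and 12.5 to 35.9 CPM, so both overlapped. Their log2 fold changes were -0.36 and 0.06, with edgeR adjusted p-values of 0.545 and 0.933. ND6 changed sign against CHW replicates 3 and 4, at 0.09, and ND4L changed sign with library totals alone, at -0.09, and within the first run, at -0.35.

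CYTB, the subunit of complex III that is encoded in the mitochondrion, had 32137, 19596, 29951 and 27266 CPM in ASN replicates 1 to 4, against 7965, 10747, 14895 and 3745 CPM in CHW replicates 1 to 4. No library of one population reached the range of the other. CYTB differed by 1.54 on the log2 scale (SE 0.401, edgeR adjusted p 0.0141), 1.55 (edgeR adjusted p 0.0094) within the first run and 1.55 (edgeR adjusted p 0.108) against CHW replicates 3 and 4. These p-values come from different models, the last from all 20 libraries with CHW split by run. With the sequencing run as a covariate the CYTB difference was 1.54, with an edgeR adjusted p of 0.0766. Only CHW lies in both runs, so that model again compares ASN with CHW replicates 1 and 2.

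The 3 subunits of complex IV, cytochrome c oxidase, differed by similar amounts. COX1 had 60949, 50159, 59534 and 51254 CPM in ASN replicates 1 to 4, against 17182, 27081, 44321 and 11059 CPM in CHW replicates 1 to 4. The ASN libraries lay close together while the CHW libraries spanned a wide range, with CHW replicate 3 nearest to ASN. The log2 fold change of COX1 was 1.16 (SE 0.417, edgeR adjusted p 0.0737), which was not called, and without CHW replicate 3 it was 1.59 (edgeR adjusted p 0.0212). COX2, at 17211 to 22000 CPM in ASN and 3872 to 12574 CPM in CHW, and COX3, at 24914 to 30504 and 3680 to 19638 CPM, did not overlap and were called. Their log2 fold changes were 1.31 (SE 0.379, edgeR adjusted p 0.0266) and 1.39 (SE 0.434, edgeR adjusted p 0.0397). COX2 lost its call without ASN replicate 1 or 3 or CHW replicate 1 or 4, and COX3 without any one of the 8 libraries except ASN replicate 4 and CHW replicate 3, with edgeR adjusted p-values up to 0.115. Within the first run all 3 were called, with log2 fold changes of 1.33, 1.37 and 1.54 (edgeR adjusted p 0.0116, 0.00968 and 0.00758).

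ATP6, a subunit of the proton channel of the ATP synthase, differed by about as much as ND2 and ND3. It had 14603, 3857, 14364 and 13010 CPM in ASN replicates 1 to 4, against 1383, 1150, 2249 and 536 CPM in CHW replicates 1 to 4. ASN replicate 2 held much less than the other ASN libraries and still more than every CHW library. For ATP6 the log2 difference was 3.11 (SE 0.48, edgeR adjusted p 0.000343), 3.18 (SE 0.555, edgeR adjusted p 0.00619) within the first run and 3.04 (SE 0.655, edgeR adjusted p 0.0145) against CHW replicates 3 and 4. ATP8 had 6.76 to 8.91 CPM in ASN and 2.50 to 10.4 CPM in CHW, and differed by 0.41 on the log2 scale (SE 0.415, edgeR adjusted p 0.577). ATP8 overlaps ATP6 in the RefSeq annotation of AaraD3, as ATP6 overlaps COX3, ND4 overlaps ND4L and ND6 overlaps CYTB. How reads shared by such neighbours were counted is not given in the sources used here, so the values of all these genes are uncertain to that extent, the called ATP6, COX3, ND4 and CYTB as well as ATP8, ND4L and ND6.

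**Figure D4:**
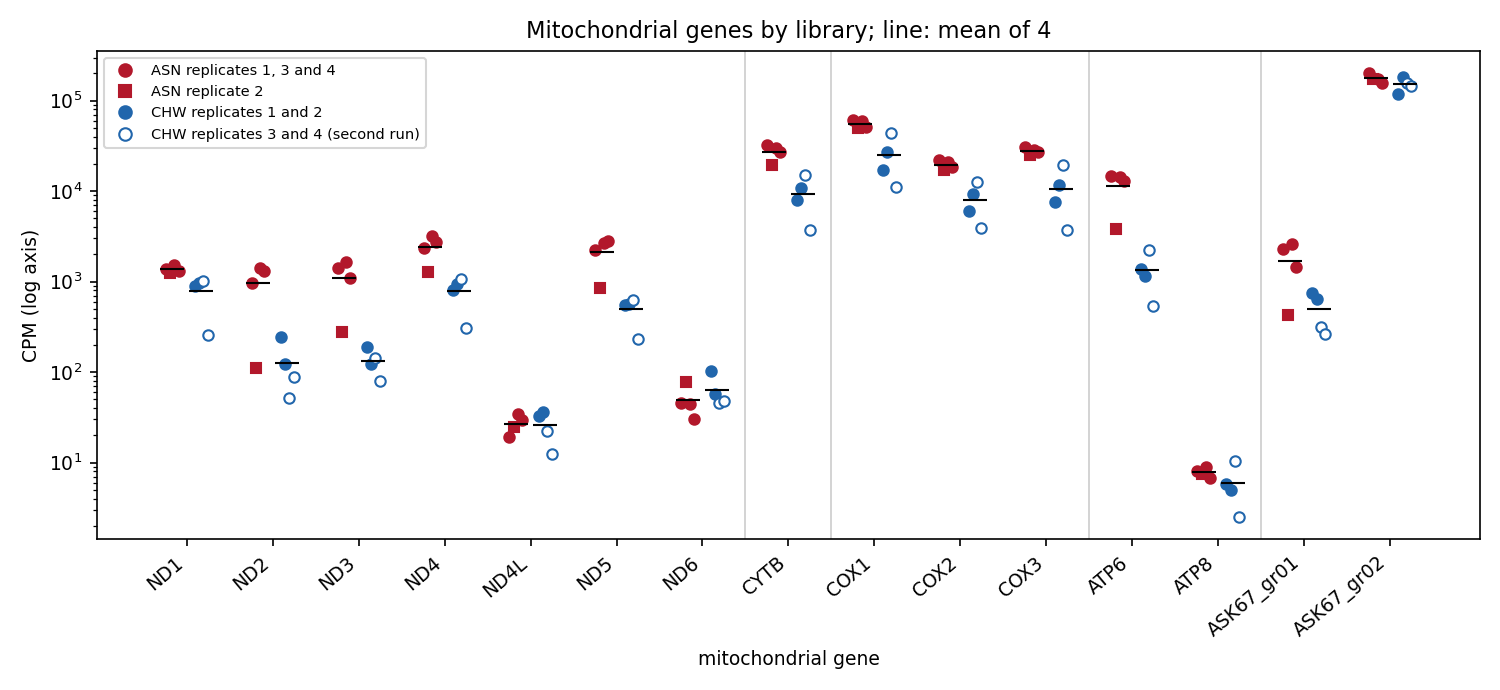
CPM on a log axis of the 13 mitochondrial protein-coding genes and the 2 ribosomal RNA genes, grouped by complex, in each ASN (red) and CHW (blue) library; lines are means of 4, squares mark ASN replicate 2 and open circles the second sequencing run. ATP6 and ND3 lie higher in every ASN library than in every CHW library, and ASN replicate 2 lies low for ND2, at 111 CPM.

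Of the 2 ribosomal RNA genes, ASK67_gr02 held most mitochondrial ribosomal counts and was not called. It had 157670 to 202587 CPM in ASN and 117822 to 184326 CPM in CHW, a log2 difference of 0.23 (SE 0.256, edgeR adjusted p 0.624). ASK67_gr01 had 2300, 429, 2610 and 1444 CPM in ASN replicates 1 to 4, against 754, 650, 312 and 266 CPM in CHW replicates 1 to 4. ASN replicate 2 lay among the CHW libraries. The log2 fold change of ASK67_gr01 was 1.77 (SE 0.508, edgeR adjusted p 0.0247) over all libraries and 1.28 (SE 0.689, edgeR adjusted p 0.265) within the first run. Of the 22 transfer RNA genes 2 had enough counts to be tested and neither was called.

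**Figure D5:**
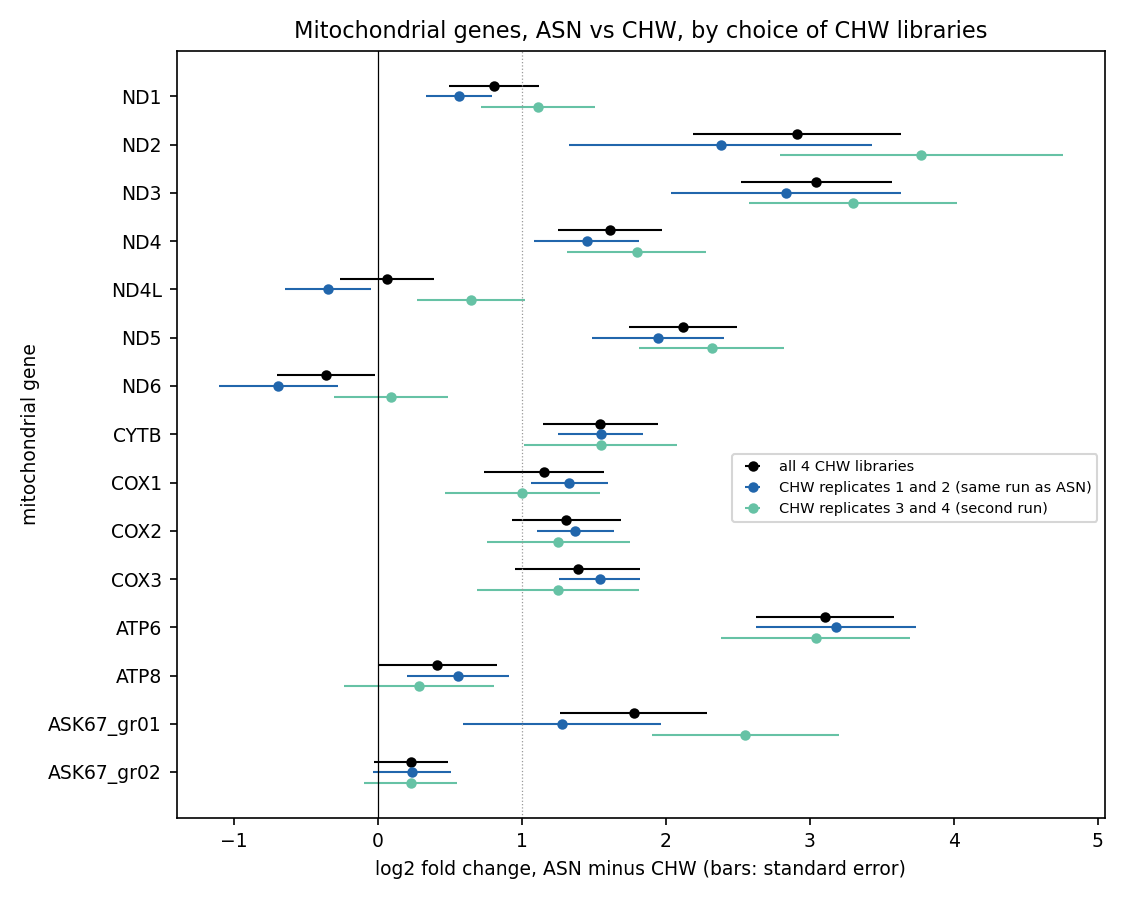
Log2 fold change, ASN minus CHW, with its standard error for each mitochondrial gene, against all 4 CHW libraries (black), CHW replicates 1 and 2 (blue) and CHW replicates 3 and 4 (green). Each choice comes from its own model, so the standard errors rest on different estimates of spread. ATP6 stays at 3.04 to 3.18, while ND2 ranges from 2.38 to 3.77 and ND6 lies on both sides of 0.

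The difference was uneven among the transcripts of the same genome. Relative to COX1 in the same library, in log2 CPM, ATP6 stood at -2.06, -3.70, -2.05 and -1.98 in ASN replicates 1 to 4, against -3.63, -4.56, -4.30 and -4.37 in CHW replicates 1 to 4. ASN replicate 2 thus lay in the CHW range for this ratio. The same held for ND3 and ND2, at -7.51 and -8.82 in ASN replicate 2 and at -5.56 to -5.19 and -5.98 to -5.27 in the other ASN libraries. CHW libraries ranged from -8.26 to -6.51 for ND3 and from -9.76 to -6.13 for ND2. For ASK67_gr01 all 4 ASN libraries, at -6.87 to -4.51, lay in the range of the CHW libraries, -7.15 to -4.51. COX2 kept nearly the same ratio to COX1, averaging -1.50 in ASN and -1.60 in CHW. ASK67_gr02 averaged 1.68 above COX1 in ASN and 2.77 in CHW.

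Some of the genes called between ASN and CHW were also called in comparisons between other groups, which were chosen after the data were seen. Those comparisons used the same model of all 20 libraries, so ASN and CHW libraries entered its filter, scaling and estimate of spread. Of the 311 genes higher in ASN, 109 (35%) were called higher in TOL than in SEK and 16 (5.14%) lower, where 5.84% and 2.14% of all 11018 genes were, together 7.99%. Of the 90 genes lower in ASN, 33 (36.7%) were called lower in TOL than in SEK and 3 (3.33%) higher. TOL was sequenced in the first run and SEK in the second, so population and run cannot be told apart there. With the lists from the first run alone, in which ASN and CHW share the run, 82 of 317 tested genes (25.9%) of the higher list were higher in TOL and 34 of 93 (36.6%) of the lower list were lower.

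MOZ and SEK are laboratory strains sequenced in the same run, and the SEK libraries are those compared with TOL. In MOZ 78 of the 311 (25.1%) were called lower than in SEK and 17 (5.47%) higher, where 6.29% and 6.42% of all genes were, together 12.7%. Of the 90 genes lower in ASN, 33 (36.7%) were called lower in MOZ and 13 (14.4%) higher. Each list held a larger share of genes lower in MOZ than the table as a whole, whichever way its genes differed between ASN and CHW. The list of 90 also held a larger share of genes higher in MOZ, 14.4% against 6.42%. With the first-run lists, 78 of 317 (24.6%) of the higher genes and 41 of 93 (44.1%) of the lower genes were lower in MOZ, and 24 (7.57%) and 6 (6.45%) were higher.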

How the data were processed

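The authors deposited 1 table of whole-number counts per gene, not normalized, judged from its values. The submitters' processing notes name FastQC 0.11.4, HISAT2, Cufflinks, SAMtools 1.5 and HTSeq 0.9.0, with no roles. Reads were 125 bp, paired and stranded, per the labels' protocols. For genome build and strand setting of the counting, the status is: not given in the sources used here. Titles matched all columns to samples, and titles also give the run.

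The table holds 13867 IDs. RefSeq's AaraD3 table matched the 37 mitochondrial ones and 0 of 13830 AARA IDs, so planned lists by gene name could not be tested and checks of GC content or length are void.

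Genes were kept with filterByExpr and scaled by TMM in edgeR 4.0.16 (R 4.3.3). Quasi-likelihood models of all 20 libraries in 5 groups, and of the 10 first-run libraries, gave ASN minus CHW. Log2 CPM used a prior count of 2, and a standard error is the log2 fold change over the square root of F. limma 3.58.1 with voom and DESeq2 1.42.0 were alternatives. The tests were tried on simulated independent counts with changes balanced in both directions. That simulation held no run effect and no deviating pool, so it did not cover those features of the data. Shares of counts were compared by exact permutation. Intervals cover counting error only. Labels call the pools biological replicates.

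Nuclear IDs were named by a rule: called alike in both comparisons, no overlap, at least 5 CPM in the higher population, largest fold change, 2 per direction. Members, lists and tests were chosen with earlier results of these data known.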

Additional observations from a re-analysis of the deposited data

Results flagged for a closer look

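Total counts, the mitochondrial shares and the log2 CPM of the named genes were examined for a library far from the other libraries of its population. In 6 of 46 groups of values one stood out, where chance marks about 1 in 20. They are not independent, since most involve mitochondrial messenger RNAs of ASN replicate 2 or CHW replicate 4.

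ASN replicate 2 had 10.8% of its counts in mitochondrial protein-coding genes, while the other ASN libraries had 14.1% to 14.7%. Its log2 CPM was 11.9 for ATP6, against 13.7 to 13.8, and 6.79 for ND2, against 9.92 to 10.47. In CHW replicate 4 the log2 CPM was 8.02 for ND1, against 9.81 to 9.99 in the other CHW libraries, and 7.84 for ND5, against 9.10 to 9.29. In ASN replicate 1 the mitochondrial ribosomal RNAs took 17.1% of the counts, against 15.7% to 15.9% in the other ASN libraries. Each of these gaps was at least 0.85 of its group's range, above Dixon's 95% critical value for 4 values. Without ASN replicate 2 the log2 fold change of ATP6 was 3.40 and that of ND2 3.28, and without CHW replicate 4 that of ND5 was 1.89. TOL replicate 2, also of the first run, was likewise lowest in its population for ND2, ND3 and ATP6. Its log2 CPM was 7.13 for ND2, against 9.62 to 11.18 in the other TOL libraries. It was 8.25 for ND3, against 10.25 to 11.06, and 12.9 for ATP6, against 13.31 to 14.24. Its mitochondrial protein-coding share, 14.97%, lay within the range of the other TOL libraries. The cause of this likeness to ASN replicate 2 was not tested.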

How the results depend on the processing

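For ASN against CHW, the calls numbered 401, with 311 higher and 90 lower, and lay within 1.5 times of that under DESeq2, voom, upper-quartile scaling, nuclear library sizes, no filter, only ASN and CHW libraries, and the run as a covariate. Only CHW lies in both runs, so the run as a covariate again compares ASN with CHW replicates 1 and 2. Library totals alone gave 203 and 143. The adjusted p alone gave 1469 (903 and 566), a test against a 1.5-fold change 162 (133 and 29), and CHW replicates 3 and 4 only 222 (163 and 59). Mitochondrial protein-coding calls, 8 as reported, were 3 under the 1.5-fold test, 3 with the run as a covariate, 4 with a replicate block and the run, and 5 against CHW replicates 3 and 4. Leaving out each library gave 314 to 487 calls (244 to 369 higher, 70 to 118 lower), 6 to 9 of them mitochondrial. The log2 fold change of ND4L turned to -0.087 with library totals, -0.35 with the run as a covariate, -0.14 with block and run and -0.35 in the first run, and ranged from -0.16 to 0.27 when each library was left out. That of ND6 turned to 0.089 against CHW replicates 3 and 4. COX3 lost its call in 11 of 22 alternatives, ASK67_gr01 in 9 and COX2 in 8, while ATP6, ND3 and ND5 kept theirs in all 22. The 4 nuclear IDs also kept theirs in all 22 alternatives of this comparison. They were chosen from the same counts for calls in both comparisons, no overlap and large fold changes, so this was favoured by their choice.

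Within the first run the adjusted p alone gave 1057 calls (712 and 345), the 1.5-fold test 148 (100 and 48, with 1 mitochondrial), library totals 146 lower genes, and a model of all 20 libraries with CHW split by run 3 mitochondrial calls. Leaving out each library gave 93 to 549 calls (48 to 417 higher, 45 to 132 lower), 0 to 8 mitochondrial, and the log2 fold change of ASK67_gr02 ranged from -0.050 without CHW replicate 1 to 0.60 without CHW replicate 2. Of 17 first-run alternatives, ND4 lost its call in 6, ND3 in 5, ND5 and CYTB in 4, COX1, COX2, COX3 and AARA000610 in 3 and ATP6 in 2, with adjusted p-values up to 0.279. The other 3 nuclear IDs, which were chosen in part for their first-run calls, kept theirs in all 17.

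The mitochondrial share differed by 8.92 points and the protein-coding share by 8.16 points against CHW replicates 1 and 2, where no exact p can pass 0.05. Leaving out each library gave 7.18 to 9.85, 6.92 to 9.06 and, for ribosomal RNA, -0.34 to 1.73 points.

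Replicate numbers did not pair ASN with CHW libraries. Deviations of same-numbered ASN and CHW libraries correlated at -0.08 to 0.032, and the best match was the own number for ASN replicate 4 alone. Pairing of ASN with TOL libraries was not tested. With a replicate block 395 genes were called (307 higher, 88 lower), and 482 (368 and 114) within the first run. The causes of these changes were not tested. Only 2 CHW libraries share a run with ASN, which limits the first-run comparison.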
